A study of Arabidopsis thaliana with 6 samples.

Results

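Leaf senescence was examined through 10 genes of Arabidopsis thaliana, chosen by locus code and including 3 NAC transcription factors that set its timing, 4 senescence-associated (SAG) genes and 3 enzymes of chlorophyll breakdown. All 10 had a row among the 26765 rows of the expression table, and 9 of them were among the 18916 rows that the authors tested. PAO shared its row with a neighbouring gene. RNA came from the aerial parts of Col-0 seedlings aged 17 days, grown at 24 °C with 16 h of light, in 3 wild type samples and 3 samples of the epic2 genotype, labelled as biological replicates. Which gene is altered in epic2 was not stated in the labels. The expression table calls its groups silex and epic2, and silex was taken as the wild type by elimination, so each direction below is epic2 against silex.

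Leaf senescence is the last stage of leaf life, in which chlorophyll, proteins and nucleic acids are taken apart and their nitrogen is moved to growing organs. NAC transcription factors, among them ORE1 and NAP, drive the programme downstream of ethylene, abscisic acid and leaf age, and the NAC factor JUB1 delays it. In young leaves ORE1 transcripts are kept low by the microRNA miR164. Chlorophyll is degraded along the pathway that NYC1, NYE1 and PAO belong to, and in leaves ORE1 and the ethylene factor EIN3 are known to bind promoters of these genes.

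Of the 9 tested genes 2 rose in epic2, 2 fell and 5 did not pass the authors' q of 0.05. Over all tested rows 18.3% passed, 9.51% as higher and 8.80% as lower in epic2. The shares depended on level, given as the mean FPKM of the groups. Among rows under 1 FPKM 4.04% were higher and 4.59% lower, together 8.63%, and among rows of 1 to 5 FPKM 4.24% were higher and 8.61% lower, together 12.9%. Rows of 5 to 20 FPKM gave 4.86% and 8.34%, together 13.2%, and rows of 20 to 100 FPKM gave 16.5% and 10.9%, together 27.5%. In rows of 100 FPKM or more the shares were 30.4% and 8.63%, together 39.0%. ORE1, SAG13 and SAG29 lay in the class of 1 to 5 FPKM and NAP in that of 5 to 20 FPKM. The regulators ORE1 and NAP fell, while SAG29 and SAG13 rose, so the genes did not share a direction. The 3 chlorophyll breakdown enzymes did not pass. SAG12, the protease gene most used as a marker of senescence, was listed at 0 in both groups and was not tested. In whole shoots, fewer cells of a kind and less RNA per cell cannot be told apart.

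**Figure D1:**
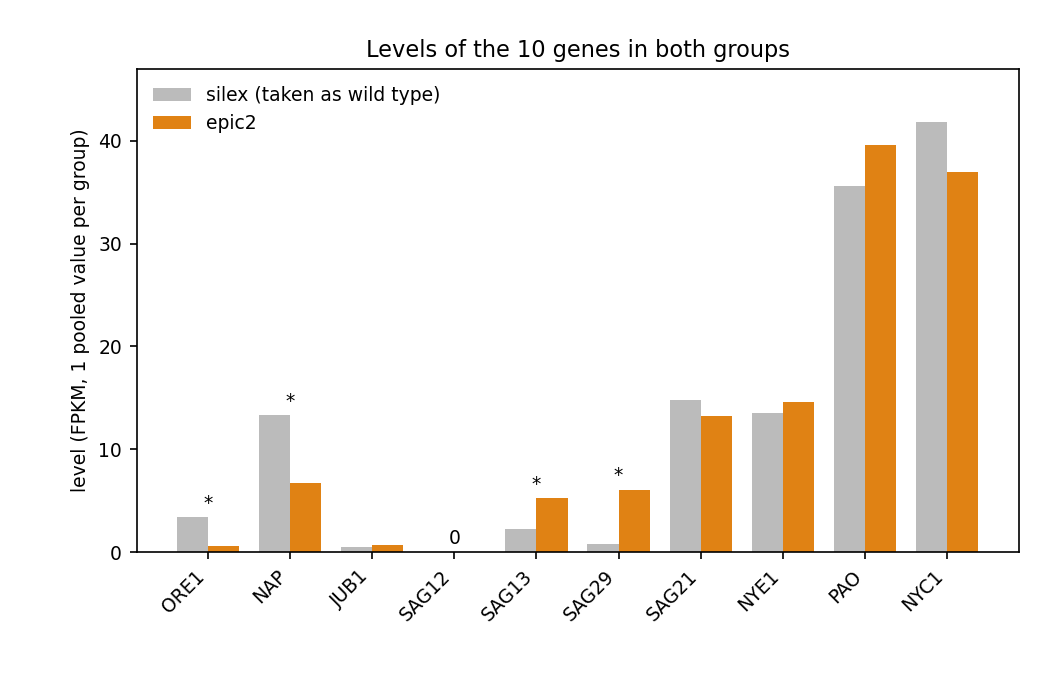
Level of each of the 10 genes in FPKM (y axis, linear), with grey bars for silex and orange bars for epic2. Each bar is the authors' value over 3 samples and has no error of its own, an asterisk marks a q of 0.05 or less in the authors' test, and SAG12 is listed at 0. NYC1 and PAO have the tallest bars, at 37.0 to 41.9 FPKM for NYC1 and 35.6 to 39.6 FPKM for PAO, and the asterisks stand over ORE1, NAP, SAG13 and SAG29.

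ORE1 (AT5G39610, named NAC6 in the table, chromosome 5, 15858400 to 15859788 in TAIR10), a NAC factor that promotes age-dependent senescence and cell death, measured 3.40 FPKM in silex but 0.604 FPKM in epic2. FPKM counts fragments relative to transcript length and to sequencing depth, and the authors gave 1 pooled value per group, so no spread between samples can be shown. Its log2 ratio of epic2 over silex in the authors' deposited table was -2.49 (SE 0.45, 95% interval -3.39 to -1.60, q = 9.37e-07), where the SE is worked out from their test statistic. The level of ORE1 in epic2 was 5.64-fold lower. On the log2(FPKM + 1) scale, which damps changes of weakly expressed genes, it was the 82nd deepest fall among the 18916 tested rows.

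NAP (AT1G69490, chromosome 1, 26122139 to 26123421), a NAC factor that promotes senescence and abscisic acid synthesis in ageing leaves, measured 13.3 FPKM in silex but 6.67 FPKM in epic2. The authors' deposited table gave it a log2 ratio of -1.0 (SE 0.17, 95% interval -1.34 to -0.66, q = 2.48e-07), the 377th deepest fall on the log2(FPKM + 1) scale. NAP was the more abundant of the pair in both groups, on a scale that takes transcript length into account.

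JUB1 (AT2G43000, named NAC042 in the table, chromosome 2, 17880615 to 17882636), which lengthens leaf life, was weakly expressed, with 0.442 FPKM in silex and 0.687 FPKM in epic2. Its log2 ratio of 0.64 (SE 0.72, q = 0.599 by the authors' deposited table) missed the threshold, and the 95% interval, -0.78 to 2.05, holds changes in both directions.

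**Figure D2:**
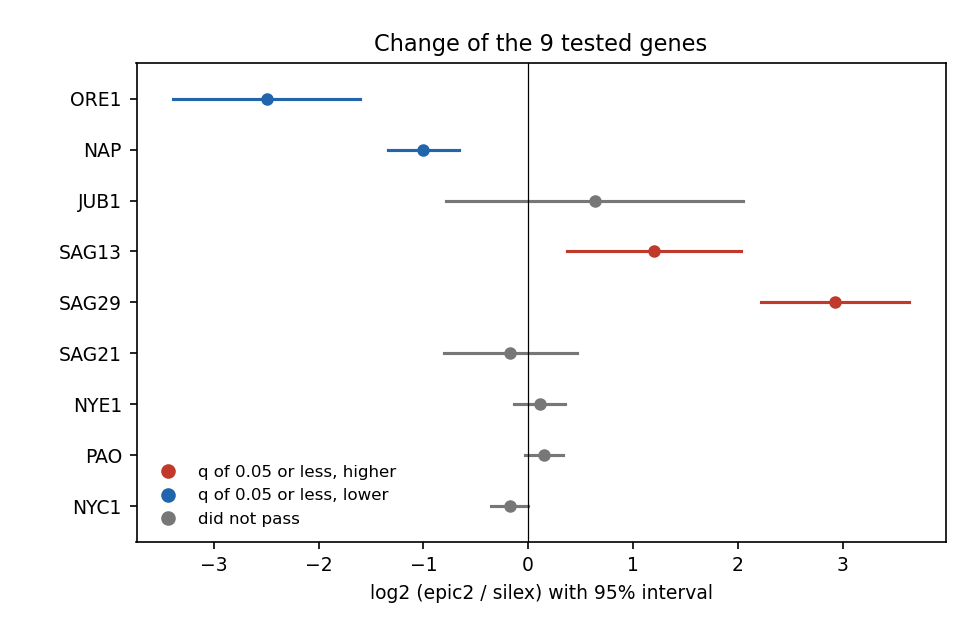
Change of the 9 tested genes, as the log2 ratio of epic2 over silex (x axis) with the 95% interval from the standard error implied by the authors' test statistic. The intervals of ORE1 and NAP lie below 0 and those of SAG13 and SAG29 above it, while the interval of JUB1 runs from -0.78 to 2.05 and those of NYE1, PAO and NYC1 stay within 0.36 of 0.

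The sequences of miR164 and of its site in ORE1 are shown because this pairing is the known brake on ORE1, and to compare ORE1 with the related NAC genes that moved or did not. In the mature microRNAs the seed, bases 2 to 8, is in capitals and is the same in all 3 (RefSeq annotation of TAIR10.1, 5′ to 3′). In the transcript sites, capitals mark bases that can pair with miR164a by Watson-Crick rules.
miR164a, chr2:19520770-19520790, plus strand: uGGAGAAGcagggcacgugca
miR164b-5p, chr5:287586-287606, plus strand: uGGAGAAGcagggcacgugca
miR164c-5p, chr5:9852684-9852704, plus strand: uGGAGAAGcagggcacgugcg
ORE1 site, chr5:15858797-15858817, minus strand: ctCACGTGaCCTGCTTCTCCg
NAC1 site, chr1:20947142-20947162, minus strand: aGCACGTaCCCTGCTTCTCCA
NAC100 site, chr5:24701687-24701707, minus strand: TctACGTGCCCTGCTTCTCCA
NAC080 site, chr5:2436958-2436978, plus strand: TttACGTGCCCTGCTTCTCCA
ORS1 best window, chr3:11034693-11034713, plus strand: ctCACGTtaCCTaCTTCTCCg

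All of the printed windows lie in coding sequence, and the ORE1 site paired at 17 of 21 bases. A mismatch was scored 1 and a G:U pair 0.5, doubled at positions 2 to 13 of the microRNA, which gave ORE1 a penalty of 4.5. Of 27440 protein-coding genes scanned, 14 had a window with that penalty or less and 7 of these were NAC genes. The limit was the penalty of ORE1 itself, so ORE1 belonged to the set by construction. Of these NAC genes 5 were tested and all 5 had the lower value in epic2, with ORE1 and NAC1 passing and 3 not. By value 47.8% of all tested rows with a defined ratio were lower, and 56.2% of those under 1 FPKM. By the authors' q, 8.80% of all tested rows were called lower and 9.51% higher. NAC1, which acts in auxin signalling for lateral roots, fell in epic2 to 3.82 FPKM, with 7.31 FPKM in silex, a log2 ratio of -0.94 (SE 0.18, q = 6.16e-06) by the authors' deposited table. NAC100, NAC080 and CUC2 stayed under 1 FPKM in both groups, and their q by the authors' deposited table ran from 0.507 to 0.958. CUC1 and AT3G12977 were not tested. Of the 7 other genes with such a window 6 were tested and 5 were lower by value, of which 1 was called lower and 0 higher. That was AUD1, a UDP-glucuronate decarboxylase gene, whose row also covers AT3G62820. The miR164 precursors and mature microRNAs were not analysed here, and a pairing window is a description of sequence only. These genes were named by the scan, which was chosen after values were seen.

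ORS1 (AT3G29035), named as the sister of ORE1 and likewise a promoter of senescence, had no window within that penalty. Its best window, printed above, scored 7.5 and paired at 15 bases. It had 2.50 FPKM in silex but 0.426 FPKM in epic2, a log2 ratio of -2.55 (SE 0.49, q = 3.17e-06) by the authors' deposited table. ORE1 and ORS1 thus had overlapping 95% intervals, -3.39 to -1.60 and -3.51 to -1.60. NAP, which also fell, had a best window with a penalty of 12, paired at 11 bases and not within the coding sequence. The best window of JUB1, which did not pass, had a penalty of 11.5 and paired at 12 bases.

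Among the 15 other NAC genes with a role in senescence, all of them tested, ORS1 and ATAF1 fell, 0 rose and 13 did not pass. That is 13.3% lower, where 8.80% of all tested rows were lower. ATAF1, an activator of ORE1, went from 15.8 to 12.1 FPKM, and its call was lost at a q of 0.01. Centring rows on the median of their level left 1 of the falls. By value 14 of the 15 were lower in epic2, as were 56.2% of rows under 1 FPKM, the exception being NAC032 with 3.27 FPKM in silex and 4.14 in epic2 (q = 0.369 by the authors' deposited table). The median log2 change was -0.44, against 0.01 over all tested rows and -0.12 over those under 1 FPKM. Their median level was 0.918 FPKM. VNI2, a repressor in this family and the next row beyond SAG29 on chromosome 5, had 89.5 FPKM in silex and 79.4 in epic2, short of the threshold.

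SAG29 (AT5G13170, chromosome 5, 4181042 to 4183306), also called SWEET15, is a sucrose transporter of the plasma membrane that is strongly induced in ageing leaves. It measured 0.797 FPKM in silex but 6.07 FPKM in epic2. By the authors' deposited table the log2 ratio was 2.93 (SE 0.36, 95% interval 2.22 to 3.63, q = 3.87e-14). Its level was 7.61-fold higher in epic2, and on the log2(FPKM + 1) scale this was the 27th highest of 18916 changes.

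The SWEET family, which carries sugars across membranes, was listed for comparison. Of 16 other SWEET genes 10 were tested, and 3 rose, 2 fell and 5 did not pass, against 9.51% higher and 8.80% lower over all tested rows. SWEET11 and SWEET12, which load sucrose into the phloem, rose, SWEET11 from 87.5 to 120.0 FPKM and SWEET12 from 6.18 to 8.66 FPKM, and SWEET1, a glucose transporter, rose from 18.3 to 25.3 FPKM. SWEET16 and SWEET17, transporters of the vacuolar membrane, fell, SWEET16 from 9.23 to 4.23 FPKM and SWEET17 from 62.6 to 48.1 FPKM. The log2 changes of the 10 tested genes ran from -1.12 to 0.49, all below that of SAG29.

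SAG13 (AT2G29350, chromosome 2, 12600914 to 12602556), a short-chain alcohol dehydrogenase that rises early in senescence and under stress, measured 2.27 FPKM in silex but 5.22 FPKM in epic2. By the authors' deposited table the log2 ratio was 1.20 (SE 0.42, 95% interval 0.37 to 2.04, q = 0.0227), a 2.30-fold rise. This was the weakest of the 4 calls, and it was lost at a q of 0.01.

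SAG13 lies in a tandem array of similar genes, in which reads shared between copies may be divided uncertainly. The 11 other genes of the array gave 10 rows, of which 7 were tested, 2 rose, 1 fell and 4 did not pass, where 16.5% of all rows of 20 to 100 FPKM were higher and 10.9% lower. With centring on the median of the level, 1 of the array rose. AT2G29310 rose from 53.0 to 80.3 FPKM, and the joint row of AT2G29290 and AT2G29300 rose from 67.5 to 84.9 FPKM. AT2G29360, the next row to SAG13, fell from 86.4 to 72.5 FPKM, while AT2G29340 on the other side stood at 78.0 and 79.5 FPKM. SAG13 was expressed well below both of its neighbours.

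SAG21 (AT4G02380, chromosome 4, 1046204 to 1046997), a mitochondrial protein of the late embryogenesis abundant group that is induced by oxidative stress, had 14.8 FPKM in silex and 13.2 in epic2. Its log2 ratio of -0.17 (SE 0.33, 95% interval -0.81 to 0.47, q = 0.782 by the authors' deposited table) missed the threshold. Of its 3 relatives AT1G02820 rose from 48.9 to 175.3 FPKM, a log2 ratio of 1.84 (SE 0.11) by the authors' deposited table. The other tested relative, DI21, stood at 34.5 and 32.3 FPKM, and AT3G53770 was listed at 0 in both groups.

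SAG12 (AT5G45890, chromosome 5, 18613259 to 18614930) encodes a papain-like cysteine protease of senescing leaves. With the gene listed at 0 in both groups, no fold can be given and its absence is not shown, since the depth of the libraries is unknown. Of 21 papain-like proteases listed for comparison 16 were tested, and 3 rose, 4 fell and 9 did not pass, against 9.51% higher and 8.80% lower over all tested rows. AT2G27420 rose from 31.1 to 72.8 FPKM, AT2G34080 from 0.776 to 1.91 FPKM and AT1G29110 from 0.157 to 1.08 FPKM. AT4G11320 fell from 25.1 to 3.06 FPKM. XCP1 and XCP2, which act in dying xylem cells, fell, XCP1 from 30.0 to 15.4 FPKM and XCP2 from 50.4 to 32.5 FPKM, and the vacuolar protease RD19 fell from 57.0 to 46.4 FPKM.

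**Figure D3:**
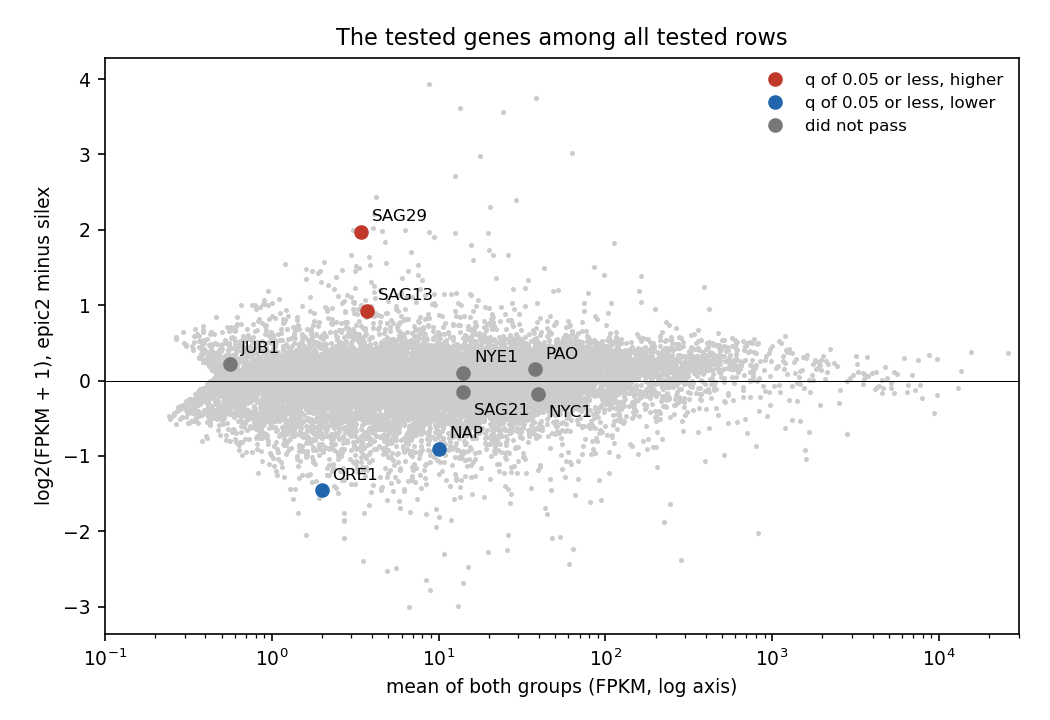
Change on the log2(FPKM + 1) scale (y axis, epic2 minus silex) against the mean of both groups in FPKM (x axis, log scale), with all tested rows in grey and the 9 tested genes as large labelled points, red for higher, blue for lower and dark grey for those that did not pass. SAG29 and SAG13 stand above the dense band of rows or at its upper rim, at 1.98 and 0.93, ORE1 and NAP lie toward the lower side, at -1.46 and -0.90, and the other 5 lie between -0.17 and 0.23.

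The upstream sequences of the 4 called genes are shown to compare the genes that rose with those that fell. Each runs over 250 bases to the base before the annotated gene start (RefSeq, TAIR10.1, 5′ to 3′ in the direction of transcription). Capitals mark the WRKY-bound W-box core TTGAC and the abscisic acid element core ACGTG, on either strand.
ORE1, chr5:15859912-15860161, minus strand: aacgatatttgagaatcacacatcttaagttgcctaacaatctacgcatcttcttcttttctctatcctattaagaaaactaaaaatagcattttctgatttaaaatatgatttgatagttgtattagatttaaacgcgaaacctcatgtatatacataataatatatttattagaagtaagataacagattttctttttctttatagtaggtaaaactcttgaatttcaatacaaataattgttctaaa
NAP, chr1:26121830-26122079, plus strand: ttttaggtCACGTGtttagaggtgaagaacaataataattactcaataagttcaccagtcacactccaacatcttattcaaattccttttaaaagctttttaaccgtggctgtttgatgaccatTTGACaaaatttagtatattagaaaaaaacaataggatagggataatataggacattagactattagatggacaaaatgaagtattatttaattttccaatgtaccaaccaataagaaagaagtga
SAG13, chr2:12600664-12600913, plus strand: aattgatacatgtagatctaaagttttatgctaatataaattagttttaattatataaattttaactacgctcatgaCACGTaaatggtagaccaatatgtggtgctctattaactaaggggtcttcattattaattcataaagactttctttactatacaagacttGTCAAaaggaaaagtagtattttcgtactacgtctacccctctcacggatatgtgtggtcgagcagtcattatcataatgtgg
SAG29, chr5:4183355-4183604, minus strand: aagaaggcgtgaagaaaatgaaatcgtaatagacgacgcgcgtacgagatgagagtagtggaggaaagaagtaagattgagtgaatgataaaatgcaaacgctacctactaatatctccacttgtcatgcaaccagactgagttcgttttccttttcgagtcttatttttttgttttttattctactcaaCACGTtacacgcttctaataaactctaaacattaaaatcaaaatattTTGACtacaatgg

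The window of ORE1 held neither core. That of NAP held 1 W-box core and a G-box, CACGTG, which contains the core ACGTG on both strands. Those of SAG13 and SAG29 each held 1 match to each core. Over all 10 genes, 6 windows held TTGAC, 3 held ACGTG, 1 held CACGTG and 5 held the NAC core CACG, which is contained in the reverse complement of ACGTG. Of 27443 protein-coding genes 44.9%, 22.9%, 6.49% and 45.6% held these motifs in windows of the same length. The windows of NYE1 and PAO overlap annotated exons. No match says only that these letters are not in the window, and a match is not a binding site.

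The enzymes of chlorophyll breakdown were among the more abundant genes of the set, and none of the 3 passed. NYC1 (AT4G13250, chromosome 4, 7684156 to 7686876), which starts the conversion of chlorophyll b to chlorophyll a, had 41.9 FPKM in silex and 37.0 in epic2. By the authors' deposited table its log2 ratio was -0.18 (SE 0.09, 95% interval -0.36 to 0.00, q = 0.159). NYE1 (AT4G22920, chromosome 4, 12016525 to 12018492), also called STAY-GREEN, removes magnesium from chlorophyll a. It had 13.6 FPKM in silex and 14.6 in epic2, a log2 ratio of 0.11 (SE 0.12, 95% interval -0.13 to 0.35, q = 0.594) by the authors' deposited table.

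PAO (AT3G44880, called ACD1 in the table), which opens the ring of pheophorbide a, had no row of its own. Its row (chromosome 3, 16382219 to 16386312) also covers AT3G44870, and the value holds both genes. It had 35.6 FPKM in silex and 39.6 in epic2, a log2 ratio of 0.15 (SE 0.09, 95% interval -0.03 to 0.33, q = 0.240) by the authors' deposited table. The intervals of NYC1, NYE1 and this joint row leave out a change as large as 2-fold, which is 1 on the log2 scale. For PAO that holds only for both genes of the row together.

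With 14 further genes, the chlorophyll breakdown list had 17 tested members, of which 4 rose, 0 fell and 13 did not pass. Not all of them are enzymes of the pathway, since BCM1, BCM2 and CV were also listed, and these did not pass. The share that rose, 23.5%, compares with 9.51% of all tested rows and with 16.5% of rows of 20 to 100 FPKM, the class that holds the median of the list, 37.6 FPKM. CLH1, a chlorophyllase, rose from 134.3 to 194.1 FPKM, and ACD2, which reduces the red chlorophyll catabolite, from 59.4 to 77.2 FPKM. HCAR, which completes the conversion of chlorophyll b to chlorophyll a, rose from 12.2 to 15.3 FPKM, and TIC55, which hydroxylates a late catabolite, from 65.8 to 81.1 FPKM. PPH, the pheophytinase between NYE1 and PAO, had 31.2 FPKM in silex and 27.5 in epic2 (q = 0.381 by the authors' deposited table). NYE2, the paralogue of NYE1, was under 1 FPKM in both groups and did not pass. The median log2 change of the list was 0.15, against 0.01 over all tested rows and 0.06 over rows of 20 to 100 FPKM.

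The 29 genes of chlorophyll synthesis and its regulation were measured beside those of breakdown. Of these 15 rose, 1 fell and 13 did not pass, and the median log2 change was 0.29. DVR, which reduces a vinyl group of the chlorophyll precursor, rose from 99.6 to 142.5 FPKM, PPOX1, a protoporphyrinogen oxidase, from 103.0 to 145.9 FPKM, CHLG, the chlorophyll synthase, from 161.6 to 224.2 FPKM, and FLU, a feedback regulator of the pathway, from 92.6 to 131.0 FPKM. PORB, a light-dependent protochlorophyllide reductase, was the single fall, from 80.6 to 66.9 FPKM, and was named after its value was seen. GLK1 and GLK2, the regulators of these genes, missed the threshold, with 165.7 FPKM in silex and 183.3 in epic2 for GLK1 and 138.3 against 138.4 for GLK2. These are abundant transcripts, with 23 of 29 at 100 FPKM or more, where 30.4% of all rows rose and the median log2 change was 0.16. When each row was centred on the median of its own level, 5 of the 29 rose.

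**Figure D4:**
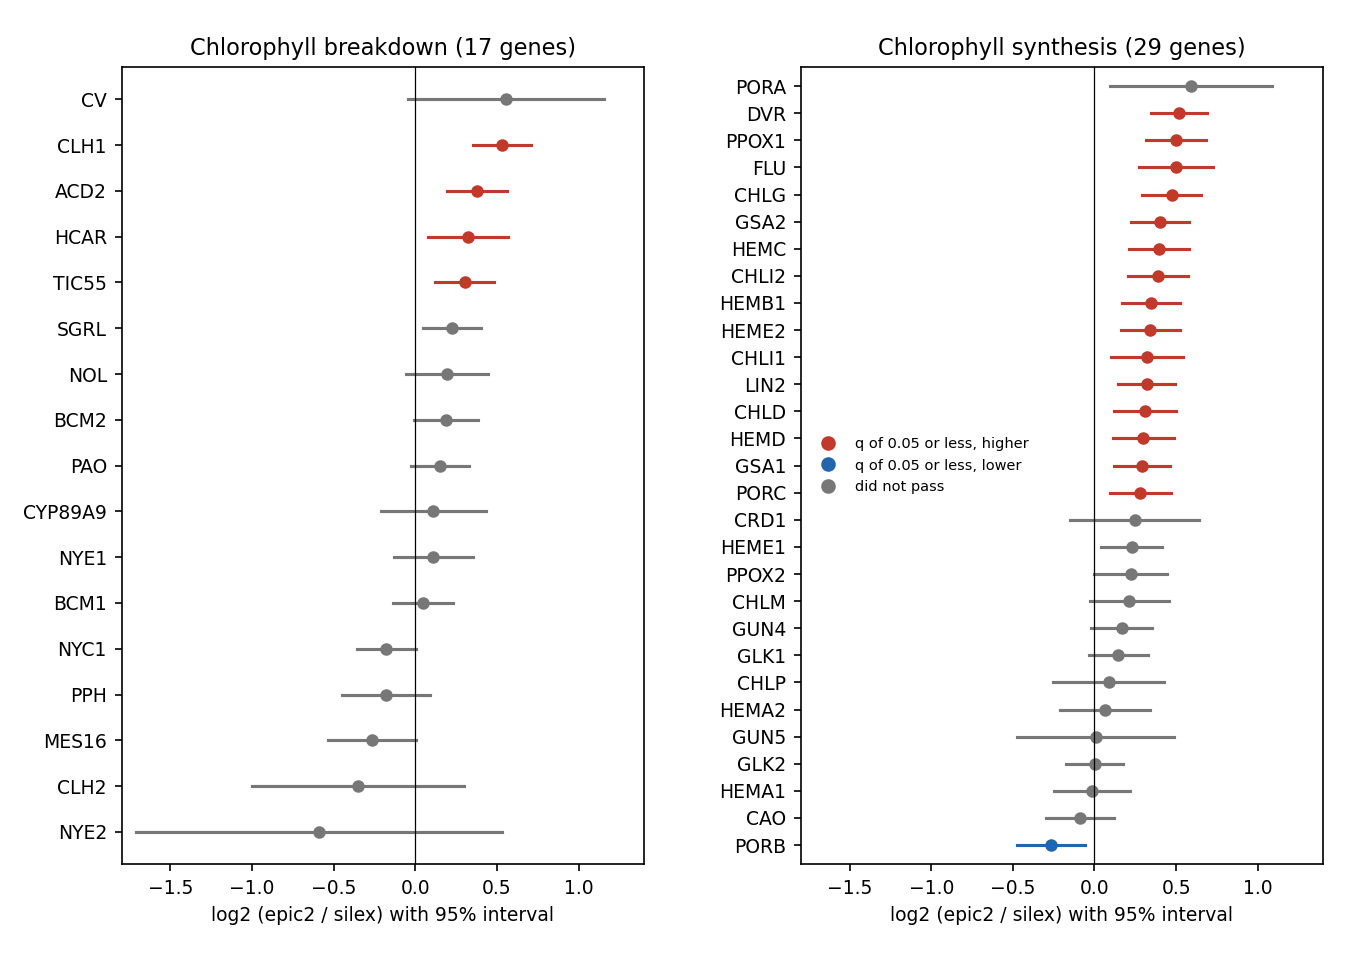
Log2 ratio of epic2 over silex (x axis) with 95% intervals, each panel sorted by value, with colour for a q of 0.05 or less. The left panel holds the 17 genes of the chlorophyll breakdown list, not all of them enzymes, and the right panel 29 of chlorophyll synthesis. PAO, NOL and CYP89A9 share rows with other genes. Most points of the right panel lie above 0, 15 of them called, and on the left 4 are called, none below 0.

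The rest of the senescence programme was taken as 123 genes of 7 lists (the NAC genes above, WRKY factors, upstream signals, the 14 other chlorophyll breakdown genes, other senescence-associated genes, nitrogen remobilisation and autophagy), with 115 tested rows. Of these 22 (19.1%) fell, against 8.80% of all tested rows, 10 (8.70%) rose, against 9.51%, and 83 did not pass. Rows under 20 FPKM, where falls outnumbered rises over the whole table, made up 73 of the 115 and held 15 of the 22 falls. In the classes under 20 FPKM 4.59% to 8.61% of all rows were lower. The median log2 change of the 115 rows was -0.15. When each row was centred on the median of its own level, 20 pathway rows passed as lower and 7 as higher. Of 24 tested senescence-associated genes outside the 10, 8 (33.3%) fell, 0 rose and 16 did not pass, while 8.34% of all rows of 5 to 20 FPKM, the class of the list's median, were lower and 4.86% higher. ASN1, a dark-induced asparagine synthetase, fell from 3.42 to 0.847 FPKM, SAG20, a wound-induced gene, from 67.0 to 26.6 FPKM, SAG14, a blue copper protein, from 22.2 to 9.96 FPKM, and DIN10, a dark-induced gene of the raffinose synthase family, from 28.5 to 15.5 FPKM. Over these 24 genes the log2 ratios had a median of -0.35.

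WRKY factors gave 4 falls (36.4%) among 11 tested genes, with 0 rises and 7 that did not pass. The median of the list lay at 3.56 FPKM, and of all rows of 1 to 5 FPKM 8.61% were lower and 4.24% higher. WRKY70 and WRKY54, which hold senescence back, fell, WRKY70 from 42.8 to 9.58 FPKM and WRKY54 from 4.73 to 2.54 FPKM. WRKY46, a factor of salicylic acid responses, fell from 4.38 to 2.59 FPKM. WRKY15, at 17.6 FPKM in silex, fell by 0.68 on the log2 scale (SE 0.14) by the authors' deposited table. WRKY53, a promoter of senescence, had 4.70 FPKM in silex and 4.34 in epic2 (q = 0.836 by the authors' deposited table).

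Of 19 tested upstream signals 4 rose (21.1%), 3 fell (15.8%) and 12 did not pass. Over all tested rows 9.51% were higher and 8.80% lower. All 4 rises lay among the 11 tested signals of 20 to 100 FPKM, where 16.5% of all rows were higher and 10.9% lower. Of the 8 tested signals under 20 FPKM 2 fell, in classes where 4.59% to 8.61% of all rows were lower. RAV1, a regulator that promotes senescence, fell from 15.4 to 7.94 FPKM. WHY1, a single-stranded DNA-binding protein of plastid and nucleus, rose from 28.9 to 45.4 FPKM, and the abscisic acid response factors ABF3 and ABF2 rose, ABF3 from 31.6 to 44.2 FPKM and ABF2 from 19.0 to 24.6 FPKM. EIN3, the ethylene factor that activates ORE1, had 48.6 FPKM in silex and 41.8 in epic2 (q = 0.0579 by the authors' deposited table). EIN2 shared its row with another gene.

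Nitrogen remobilisation genes moved both ways, with 4 falls, 2 rises and 4 that did not pass among 10 tested, where 8.34% of all rows of 5 to 20 FPKM were lower and 4.86% higher. GDH2 and GDH1, glutamate dehydrogenases, fell, GDH2 from 11.6 to 5.69 FPKM and GDH1 from 28.2 to 16.5 FPKM, and GLN1;1, a cytosolic glutamine synthetase, from 19.0 to 11.3 FPKM. The 2 rises lay outside the class of 5 to 20 FPKM. GLN1;5, of the same family as GLN1;1, rose from 0.312 to 1.68 FPKM, with a mean under 1 FPKM, where 4.04% of all rows were higher. GLN1;2, also of that family, rose from 414.3 to 515.4 FPKM, in the class of 100 FPKM or more, where 30.4% were higher. Autophagy gave 22 tested rows, 14 of them at 5 to 20 FPKM. ATG2, a lipid transfer protein of the growing autophagosome and 1 of these 14, fell from 6.05 to 4.74 FPKM. In the list 0 rose and 21 did not pass, so 4.55% of the 22 rows were lower, beside 8.80% over all tested rows. The median log2 change was -0.04. Centred on the median of their level, 0 autophagy rows passed as lower, and 1 nitrogen gene passed as higher.

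**Figure D5:**
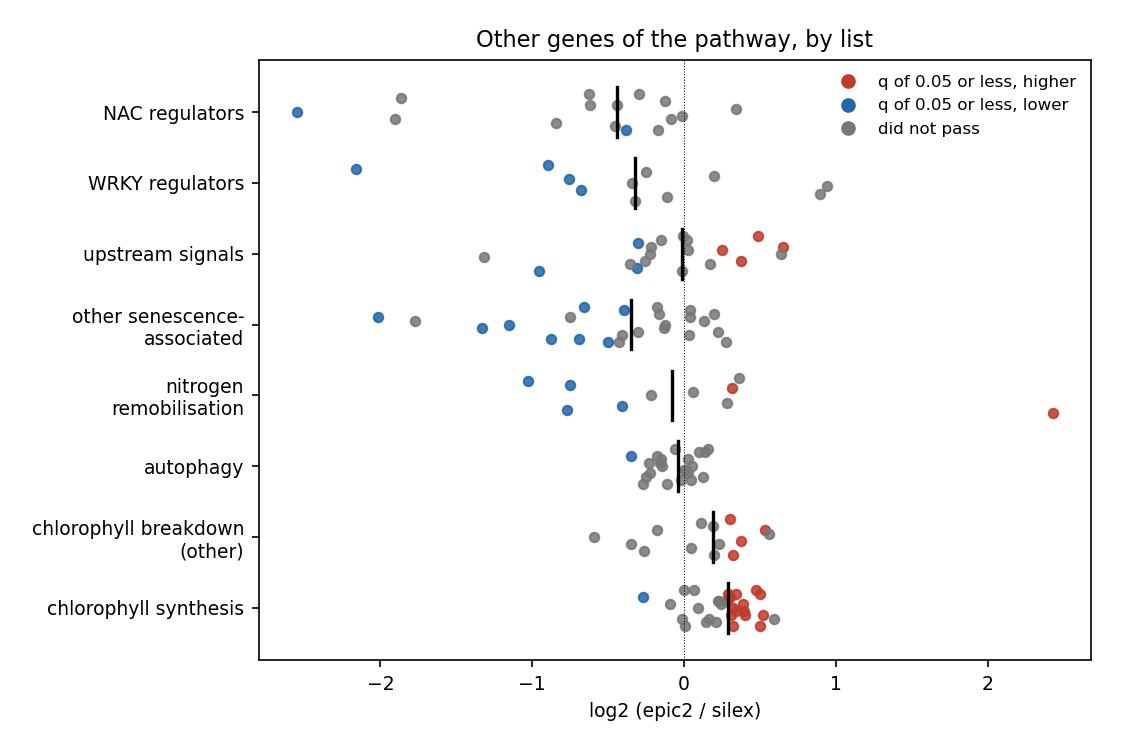
Log2 ratio of epic2 over silex (x axis) for every tested gene of 8 lists (y axis), with a black bar at each list's median and colour for a q of 0.05 or less. The chlorophyll breakdown list shown holds the 14 genes other than NYE1, PAO and NYC1. Medians run from -0.44 for the NAC genes and -0.35 for other senescence-associated genes to 0.19 for these 14 and 0.29 for chlorophyll synthesis.

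Genes reported as targets of ORE1, NAP or JUB1 were also listed, apart from those among the 10. Of 10 tested 2 fell, 0 rose and 8 did not pass, beside 8.80% lower over all tested rows. RNS3, a ribonuclease, fell from 9.35 to 5.79 FPKM, and GA3OX1, which makes active gibberellin and is repressed by JUB1, from 6.49 to 3.02 FPKM. BFN1, the nuclease gene known as a direct target of ORE1, had 3.67 FPKM in silex and 2.73 in epic2 (95% interval of the log2 ratio -0.92 to 0.07, q = 0.233 by the authors' deposited table). SAG113 and AAO3, targets of NAP in abscisic acid signalling and synthesis, missed the threshold, with 1.12 FPKM in silex and 1.36 in epic2 for SAG113 and 5.53 against 5.17 for AAO3.

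The labelled tissue was checked with marker genes. Of 9 leaf markers 6 were tested and 0 passed, among them LHCB2.1, a light-harvesting protein, at 4813 and 4486 FPKM. Over all tested rows 18.3% passed, as did 39.0% of rows of 100 FPKM or more, the class of 5 of the 6. The 3 leaf markers not tested belong to 4 rows of the table with the status HIDATA. That is Cuffdiff's mark for a locus with too many fragments, and their values were not used. RBCS1A and RCA are listed at 0 in both groups and CAB1 at 0 in silex and 15806 FPKM in epic2, so a 0 in such a row is no measure of a low level. SAG12 carries another status, the one for rows with too little data to test. Summed flower markers stood at 2.89 and 3.12 FPKM over 6 rows and summed seed markers at 0.0919 and 0.102 FPKM over 3. Root markers summed to 141.6 FPKM in silex and 65.0 FPKM in epic2 over 8 rows, and EXPA7 was listed at 0 in both groups. PYK10, which young shoots also express, made up 130.9 and 51.8 FPKM of these sums. Of the 5 tested root markers PYK10 fell and 2 rose, where 9.51% of all tested rows were higher and 8.80% lower. The rises were CASP1, from 0.252 to 1.52 FPKM, and FRO2, from 0.857 to 1.74 FPKM. The part of these differences in the results above was not tested.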

How the data were processed

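Total RNA of the 6 samples was made into TruSeq version 2 libraries and read from 1 end, per the labels' protocols. The submitters' processing notes name TopHat, Cufflinks, Cuffdiff and TAIR10, with no version or setting. The authors deposited 1 table with 1 FPKM value per group, replicates pooled, so the depth of each library is unknown and intervals of counting cannot be had. No source used here states the scaling between libraries. Per the file headers each row also has the authors' log2 fold change, a test statistic, which is a score, and a p-value and q-value. Deposited p-values matched a two-sided normal test of that statistic within 2.8e-06, so the SE printed is the log2 fold change divided by the statistic, and the 95% interval is 1.96 SE on each side. The samples are labelled as biological replicates, but the labels do not say that they were grown apart. The p-values cover only the spread among these samples, and how much of it is technical is not known. The test's sign is opposite to that of the fold change and was turned.

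Genes were found by name and overlapping position in the TAIR10.1 RefSeq annotation, since a symbol such as NAC2 names several genes. Of 247 listed genes 243 had a row, 1 by position alone. Of 23396 rows with a unique symbol 99.97% overlapped the annotated gene, so coordinates of both were used together. Rows are printed from base 1. The labels do not state strand, so antisense reads cannot be told apart. Calls use the authors' deposited q at 0.05 in tested rows, and lists are described by counts and medians without a test. That q is not the Benjamini-Hochberg value over all tested rows, which was 0.0307 for SAG13, where the deposited q was 0.0227. A calling step was tested on simulated data. Members and lists were chosen with earlier results of these data known. Named genes are the 10 genes, from each list the called genes with the largest changes, up to 4, and all called genes of a member's family. Other genes given by value were chosen after the values were seen. Figures were drawn with matplotlib 3.10.9, and values computed with scipy 1.17.1, numpy 2.4.6 and pandas 2.3.3 under Python 3.11.15.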

Additional observations from a re-analysis of the deposited data

How the results depend on the processing

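Of the 4 called genes, ORE1, NAP and SAG29 kept their calls at a q of 0.01 or 0.10, with Benjamini-Hochberg adjustment over all tested rows or those of 1 FPKM or more, with Bonferroni adjustment, with a minimum mean of 1 FPKM and after centring on the median. SAG13, at a log2 change of 1.20, lost its call at a q of 0.01, under Bonferroni adjustment and when a 2-fold change on log2(FPKM + 1) was also asked, and NAP, at -1.0, lost its call under the last. No gene reversed its direction. With 1 FPKM added, the log2 changes of ORE1 and SAG29 shrank to -1.46 and 1.98. Among the 10 genes the count called higher was 1 at a q of 0.01, under Bonferroni adjustment and with the 2-fold minimum, and the count called lower was 1 with the 2-fold minimum. For chlorophyll breakdown the 4 rises became 3 with Benjamini-Hochberg adjustment over all tested rows, 1 under Bonferroni adjustment and 0 with the 2-fold minimum. For the 123 pathway genes the 10 rises and 22 falls became 2 and 11 under Bonferroni adjustment, and 1 and 5 with the 2-fold minimum. The Bonferroni and 2-fold settings are stricter by construction. Centring each row on the median of its own level, added after seeing the data, left the 4 calls in place and gave 1149 rows higher and 1697 lower over the table, against 1798 and 1664 as reported, which moved the share of higher calls from 51.9% to 40.4%. Over the table a q of 0.01 gave 1119 and 1120, and Benjamini-Hochberg adjustment over all tested rows gave 1665 and 1543. Bonferroni adjustment gave 321 and 513 and the 2-fold minimum 94 and 213. Leaving out samples was not run, since the table holds no value per sample. No paired analysis was possible because the replicates are pooled in the deposited values.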

Other observations

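The rows next to the 10 genes on their chromosomes were compared with them. Of 20 flanking rows 14 were tested, and 2 were called higher and 4 lower, where 9.51% of all tested rows were higher and 8.80% lower. On chromosome 5 the rows beside SAG29 were PBS1, a kinase of plant immunity, at 13.7 and 15.1 FPKM, and VNI2, and neither passed. Beside ORE1, AT5G39600 had 20.3 FPKM in silex and 22.2 in epic2 without passing, and RABG1 was listed at 0 in both groups. JUB1 has PIF4, a light-regulated growth factor known to promote senescence, as a neighbour, and PIF4 fell from 72.9 to 59.1 FPKM. Beside NYE1, PYR4 rose from 31.9 to 45.4 FPKM, and beside PAO, RPL9 rose from 361.3 to 509.5 FPKM while FAMT fell from 18.1 to 12.4 FPKM. The other called rows were AT4G02370 beside SAG21, which fell from 12.2 to 8.12 FPKM, and AT2G29360 beside SAG13, given above.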
